A study of Mus musculus with 6 samples.

Results

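The 10 genes described here are the vascular growth factor receptor genes Flt1 and Kdr, the angiopoietin receptor gene Tek and its relative Tie1, the co-receptor gene Eng, the endothelial junction and surface genes Pecam1, Cdh5 and Emcn, the endothelial nitric oxide synthase gene Nos3, and the ligand gene Vegfb. They were taken by gene symbol from the deposited count table, where all 10 had values among 17034 genes with values, and all 10 passed the filter on low counts among 13118 genes tested. Sequenced RNA came from a hindlimb muscle, the gastrocnemius, of 8-week-old male mice and was selected for poly(A), with 3 libraries per genotype and 1 library per mouse as the series design counts them. Mice labelled TRa_mKO (Myf5-Cre; Thrafl/fl) carried the Myf5-Cre transgene B6.Cg-Tg(Myf5-cre)1Jme/J and floxed alleles of Thra, which encodes thyroid hormone receptor alpha. Littermates labelled WT carried the same floxed alleles and no Cre, so that the effect of the Cre transgene and that of Thra loss cannot be told apart. Cre expressed from Myf5 acts in the myogenic lineage from embryonic life, and its use here aims at muscle cells rather than at vessels. All 6 libraries were given 1 batch by the labels.

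Capillary endothelial cells line the smallest vessels between muscle fibres and exchange oxygen, glucose and fatty acids with them. Fibres secrete VEGF-A, which binds Kdr to drive endothelial growth and survival, while Flt1 binds VEGF-A, VEGF-B and placental growth factor and, in a soluble form, acts as a decoy that limits VEGF signalling. Tek and Tie1 stabilise vessels in response to angiopoietins, Eng presents BMP ligands to the receptor ALK1, Cdh5 and Pecam1 hold endothelial cells together, and Nos3 makes the nitric oxide that relaxes vessels. Vegfb is the exception in the set, a ligand made largely by muscle fibres and heart muscle rather than a marker of endothelium. In bulk muscle RNA, fewer endothelial cells and less RNA of these genes per cell cannot be told apart.

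Promoter sequences of 7 of the 10 genes were matched by gene ID in RefSeq, build GRCm38.p6. The 250 bases upstream of the start are shown for the VEGF receptor genes Flt1 and Kdr and for Emcn, which had the 3 lowest fold changes of the set, and for Vegfb, which had the highest, to let their promoters be compared. Capitals mark 3 motifs searched on both strands. The ETS core was searched for in the form AGGAAG only, which appears as CTTCCT when it lies on the other strand. ETS sites spelled otherwise were not marked or counted. The cAMP response element, TGACGTCA, reads the same on both. The core motif of nuclear receptors is AGGTCA, and its other strand reads TGACCT. No motif shown overlapped another.
Flt1, chr5:147726012-147726261, minus strand: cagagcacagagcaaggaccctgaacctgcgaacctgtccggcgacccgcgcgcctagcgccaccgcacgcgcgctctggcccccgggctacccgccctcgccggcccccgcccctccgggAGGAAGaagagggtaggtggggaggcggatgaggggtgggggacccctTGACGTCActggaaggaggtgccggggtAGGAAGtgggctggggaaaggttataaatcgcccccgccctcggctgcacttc
Kdr, chr5:75978456-75978705, minus strand: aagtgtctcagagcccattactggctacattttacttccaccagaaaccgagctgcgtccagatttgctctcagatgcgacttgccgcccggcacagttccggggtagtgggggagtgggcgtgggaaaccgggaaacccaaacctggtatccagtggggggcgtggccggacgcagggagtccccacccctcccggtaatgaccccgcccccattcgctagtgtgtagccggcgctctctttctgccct
Emcn, chr3:137340828-137341077, plus strand: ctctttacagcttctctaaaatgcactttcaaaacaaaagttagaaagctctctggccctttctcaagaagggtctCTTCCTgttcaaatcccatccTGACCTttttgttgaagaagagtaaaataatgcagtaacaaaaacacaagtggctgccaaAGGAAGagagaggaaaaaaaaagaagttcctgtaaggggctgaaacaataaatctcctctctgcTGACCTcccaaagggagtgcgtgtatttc
Vegfb, chr19:6987652-6987901, minus strand: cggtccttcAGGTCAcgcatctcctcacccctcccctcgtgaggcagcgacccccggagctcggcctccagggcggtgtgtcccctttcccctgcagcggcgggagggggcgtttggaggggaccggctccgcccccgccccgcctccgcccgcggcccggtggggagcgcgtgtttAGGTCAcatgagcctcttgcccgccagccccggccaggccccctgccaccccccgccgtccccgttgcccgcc
The ETS core in this form, letters that endothelial transcription factors such as Fli1 and Erg can read, was found in 4 of the 7 promoters (Flt1, Tie1, Eng and Emcn), against 29.5% of 32851 mouse promoters of the same length. Flt1 held the ETS core 2 times, first bases at -129 and -53 from the start, with the cAMP response element between at -81, an element found in 1.55% of all promoters. The nuclear receptor motif, which thyroid hormone receptors and many other nuclear receptors can bind, was found in Vegfb and Emcn (2 times each) and in 14.0% of all promoters. The Kdr window held none of these motifs in the forms searched, which does not show that it lacks ETS sites. A match here describes letters only.

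Library totals lay between 12390527 and 14488500 counts, a ratio of 1.17, and the least counted of the 10 genes, Nos3, had 373 to 616 counts per library. Thra, the targeted gene, was not lower in the libraries labelled TRa_mKO, at 101 to 129 CPM (library-scaled counts per 1e6 counts) against 78.8 to 96.8 CPM in WT (edgeR quasi-likelihood test, adjusted p = 0.117, shared reads). A gene-level count adds exons that the floxed allele may keep, so it checks neither the deletion nor the labels, and every direction below rests on the labels. Of 6 defining endothelial markers, 4 (Pecam1, Cdh5, Kdr and Tie1) are among the 10 genes, and the other 2 averaged 26.1 CPM in WT and 26.7 CPM in TRa_mKO (Cldn5) and 43.5 and 37.1 CPM (Erg). Libraries of 1 genotype differed from each other in endothelial signal. The summed level of the 9 endothelial genes (the 10 without Vegfb) was 1612, 1469 and 1307 CPM in WT replicates 1, 2 and 3, against 959, 1057 and 1302 CPM in TRa_mKO replicates 1, 2 and 3. TRa_mKO replicate 1 lay below every WT library in 9 of the 9 genes, TRa_mKO replicate 2 in 8 and TRa_mKO replicate 3 in 3. WT replicate 1 was the highest library for 8 of the 9. Haemoglobin transcripts, which come with blood left in the vessels, followed the same order inside each genotype, at 1742, 583 and 453 CPM in WT against 703, 907 and 1599 CPM in TRa_mKO. With the haemoglobin-rich library of each genotype (WT replicate 1 and TRa_mKO replicate 3) left out, the median log2 fold change of the 10 genes was -0.44, against -0.34 with all libraries.

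**Figure D1:**
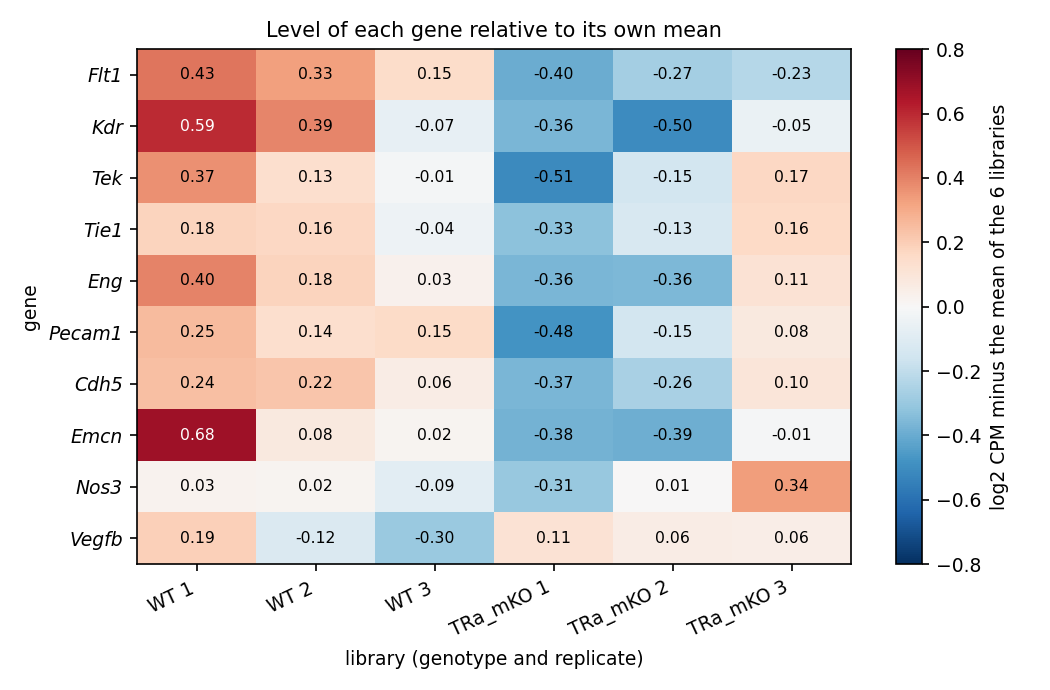
Each cell gives a gene's log2 CPM in a library minus its mean over the 6 libraries, with genes in rows and libraries in columns. TRa_mKO replicates 1 and 2 are below the mean for most endothelial genes, TRa_mKO replicate 3 is near or above it except for Flt1, and Vegfb follows another pattern.

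Of the 10 genes, Flt1 fell by 34.1% in TRa_mKO muscle and the other 9 did not pass the test. Kdr had a fold change close to that of Flt1. A log2 fold change below 0 was seen for 8 of the 10, against 50% of all genes tested. The median log2 fold change was -0.34 over the 10 and 0.00 over all 13118 genes. With an adjusted p under 0.05 in edgeR counted as changed, 1 of the 10 was called, against 4.17% of all genes (1.65% lower and 2.52% higher). Scaled by library size alone, 213 genes were called higher and 255 lower, against 331 and 216. At an adjusted p under 0.1, 2 of the 10 were called lower (Flt1 and Kdr), against 2.74% of all genes. At an unadjusted p under 0.05, 6 of the 10 were lower and 0 higher, against 7.72% of all genes lower. The groups were fully apart for 3 of the 10 (Flt1, Pecam1 and Emcn), all lower in TRa_mKO, against 10.1% of all genes lower in this way. The 10 genes share their cells of origin, so these counts are descriptions.

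**Figure D2:**
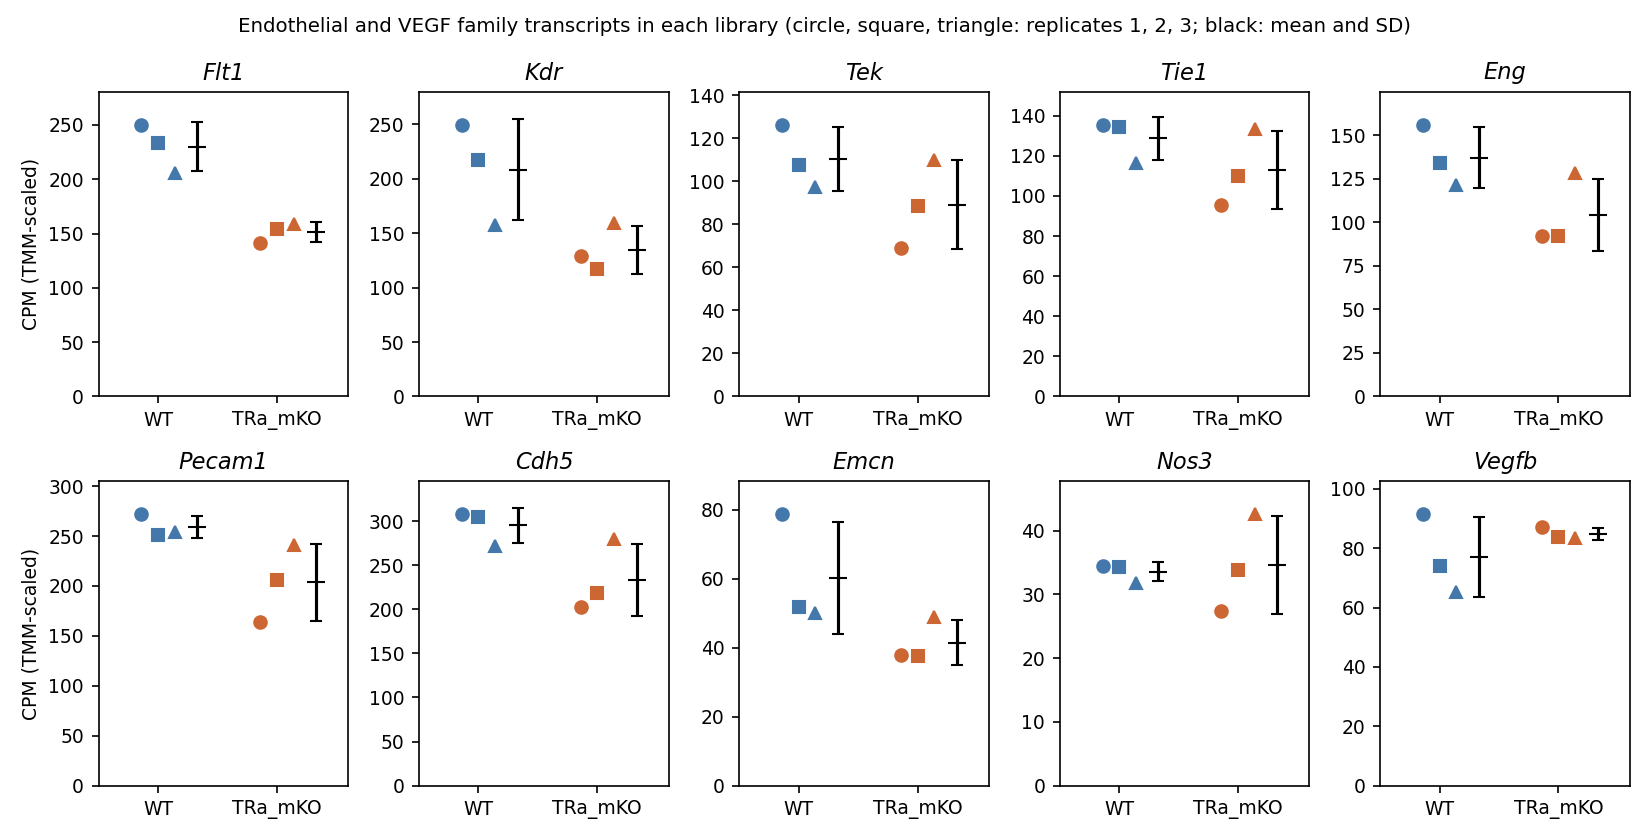
CPM of each gene in each library, with WT in blue and TRa_mKO in orange; black bars give mean and SD over 3 libraries and every axis starts at 0. Flt1, Pecam1 and Emcn have all TRa_mKO libraries below all WT libraries, and the other genes overlap.

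Flt1 (gene ID 14254) encodes the VEGF receptor with the highest affinity for VEGF-A. Its counts are per gene and do not separate the soluble decoy form from the receptor. Flt1 stood at 250.3, 234 and 206 CPM in the WT libraries, against 142, 154 and 159 CPM in those of TRa_mKO. The libraries labelled TRa_mKO lay close together and well below the lowest WT library, including TRa_mKO replicate 3, in which only Flt1, Pecam1 and Emcn of the 9 endothelial genes were below every WT library. The means were 230.0 ± 22.4 and 152 ± 9.05 CPM (SD, n = 3 each), which is -0.60 on the log2 scale (SE 0.10, with a 95% confidence interval from -0.83 to -0.37, edgeR adjusted p = 0.0116). The call ended without TRa_mKO replicate 2 (adjusted p = 0.0607, log2 fold change -0.62) and with the haemoglobin-rich pair left out (adjusted p = 0.0640, log2 fold change -0.57).

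Kdr (gene ID 16542), the main signalling VEGF receptor of endothelium, stood at 249.8, 217 and 158 CPM in the WT libraries, against 129, 117 and 159 CPM in those of TRa_mKO. The groups touched, because WT replicate 3 was level with TRa_mKO replicate 3. The log2 fold change was -0.63 (SE 0.18, with a 95% confidence interval from -1.03 to -0.23), and its adjusted p in edgeR was 0.0949. It passed in edgeR without WT replicate 3 (adjusted p = 0.0259) and with DESeq2 on all libraries (adjusted p = 0.00618). The intervals of Flt1 and Kdr overlap almost wholly, and their passing or not passing does not show that they differ.

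Among the other receptors, Tek (gene ID 21687), the receptor of angiopoietins, stood at 126, 107.6 and 97.2 CPM in the WT libraries, against 69.1, 88.7 and 110.0 CPM in those of TRa_mKO. The highest TRa_mKO library exceeded the middle WT library. The log2 fold change was -0.31 (95% confidence interval -0.69 to 0.07, edgeR adjusted p = 0.384), and lay between -0.49 (without TRa_mKO replicate 3) and -0.15 (without TRa_mKO replicate 1) with 1 library left out. Tie1 (gene ID 21846), an orphan receptor that pairs with Tek, stood at 136, 134 and 116 CPM in the WT libraries, against 95.5, 109.7 and 134 CPM in those of TRa_mKO, with a log2 fold change of -0.19 (-0.47 to 0.10, adjusted p = 0.486), and of -0.33 and -0.08 without those same libraries. Eng (gene ID 13805), endoglin, stood at 156, 134 and 121 CPM in the WT libraries, against 92.0, 92.2 and 128 CPM in those of TRa_mKO. Its log2 fold change was -0.40 (-0.72 to -0.07, adjusted p = 0.186), and only TRa_mKO replicate 3 reached the WT range. Without that library Eng passed (edgeR adjusted p = 0.0430, log2 fold change -0.57).

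The structural genes gave a middle range. Pecam1 (gene ID 18613), an adhesion molecule of endothelial contacts, stood at 272, 251 and 254 CPM in the WT libraries, against 164, 206 and 241 CPM in those of TRa_mKO. The groups did not overlap, but TRa_mKO libraries spread over a wide range, and the log2 fold change of -0.35 (95% confidence interval -0.65 to -0.05) had an adjusted p of 0.203 in edgeR. It was -0.21 without TRa_mKO replicate 1 and -0.48 without TRa_mKO replicate 3. Cdh5 (gene ID 12562), VE-cadherin, stood at 308, 305 and 272 CPM in the WT libraries, against 203, 218 and 279 CPM in those of TRa_mKO, with a log2 fold change of -0.34 (-0.63 to -0.05, adjusted p = 0.201). Emcn (gene ID 59308), a mucin-like protein of capillary and venous endothelium, stood at 78.8, 51.9 and 50.0 CPM in the WT libraries, against 37.9, 37.6 and 49.0 CPM in those of TRa_mKO. WT replicate 1 stood above the other libraries, and TRa_mKO replicate 3 was just below the lowest WT library. The log2 fold change of Emcn was -0.53 (-0.97 to -0.10, adjusted p = 0.187), and -0.30 without WT replicate 1.

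Nos3 and Vegfb were the members with a fold change above 0. Nos3 (gene ID 18127) stood at 34.5, 34.2 and 31.8 CPM in the WT libraries, against 27.3, 33.9 and 42.6 CPM in those of TRa_mKO, a log2 fold change of 0.05 (95% confidence interval -0.27 to 0.37, edgeR adjusted p = 0.910). The TRa_mKO libraries lay on both sides of the WT range, and without TRa_mKO replicate 3 the log2 fold change was -0.13. Exons of Nos3 overlap those of Atg9b on the opposite strand over 294 bases and its counts were not whole, so a part of its reads may be shared. Atg9b itself was near 1 CPM (0.780 CPM in WT and 0.851 CPM in TRa_mKO). Vegfb (gene ID 22340) stood at 91.5, 74.1 and 65.3 CPM in the WT libraries, against 87.0, 83.6 and 83.5 CPM in those of TRa_mKO, with a log2 fold change of 0.14 (-0.13 to 0.40, adjusted p = 0.596), which was 0.27 without WT replicate 1, 0.03 without WT replicate 3 and 0.29 without the haemoglobin-rich pair. All TRa_mKO libraries fell inside the WT range.

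**Figure D3:**
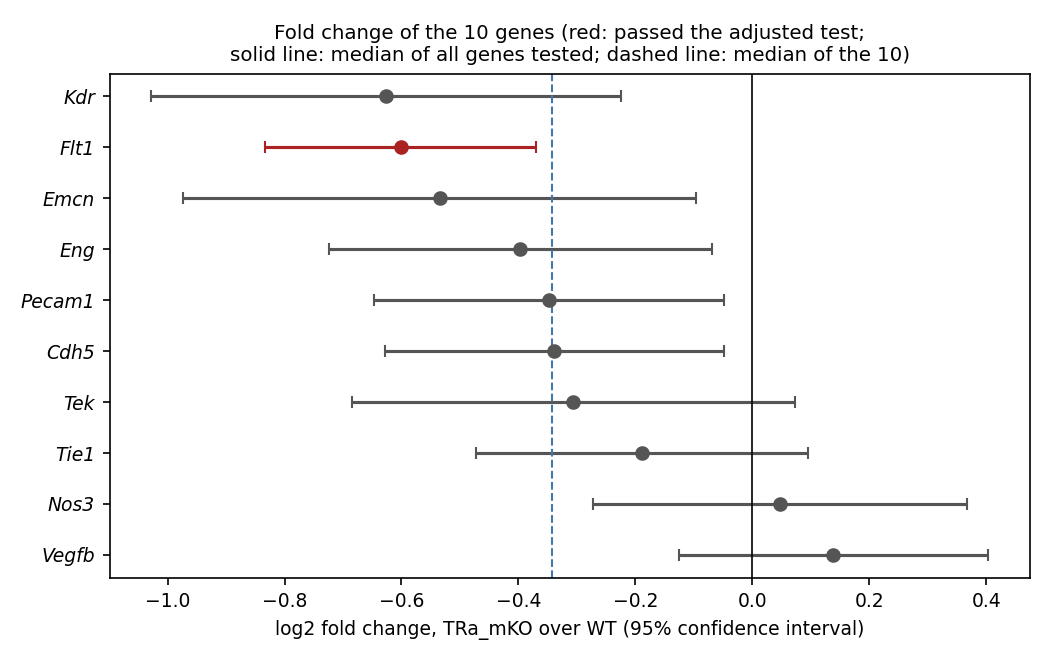
Log2 fold change (TRa_mKO over WT, horizontal axis) of each gene with its 95% confidence interval; red marks Flt1, which passed the adjusted test, and the dashed line is the median of the 10 at -0.34. Intervals of Kdr, Flt1, Emcn, Eng, Pecam1 and Cdh5 lie below 0, and those of Tek, Tie1, Nos3 and Vegfb span it.

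Per length of exon, Cdh5 had the highest level of the set in WT, at 70.2 ± 4.75 CPM per kilobase (SD, n = 3), followed by Vegfb at 48.0 ± 8.32, Pecam1 at 41.6 ± 1.84 and Eng at 33.9 ± 4.36. Vegfb and Pecam1 did not differ in level beyond their spread. Tie1 (26.2 ± 2.17), Tek (23.4 ± 3.14) and Kdr (23.1 ± 5.16 CPM per kilobase) formed a group within each other's spread, then came Flt1 at 17.03 ± 1.66, Emcn at 11.1 ± 2.98 and Nos3 at 8.11 ± 0.358. In TRa_mKO, Flt1 had 11.2 ± 0.670 and Kdr 14.9 ± 2.45 CPM per kilobase, both below Tie1 with 23.0 ± 3.92. The length used was the union of exons over all annotated transcripts of a gene. It was 13504 bases for Flt1, 9030 for Kdr and 4917 for Tie1, so the order of genes depends on this choice.

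Because whole libraries differed in endothelial signal, each gene was also set against Cdh5 within the same library, a ratio of counts that needs no scaling between libraries. This was chosen after the values were seen. Flt1 counts per Cdh5 count were 0.812, 0.767 and 0.757 in WT and 0.699, 0.707 and 0.569 in TRa_mKO, so the groups did not overlap and Flt1 was low relative to Cdh5 in all 3 TRa_mKO libraries. Tie1 went the other way, at 0.440, 0.441 and 0.428 in WT and 0.471, 0.503 and 0.478 in TRa_mKO. Nos3 did so too, at 0.112, 0.112 and 0.117 in WT and 0.135, 0.155 and 0.153 in TRa_mKO. Vegfb relative to Cdh5 was likewise higher in every TRa_mKO library, from 0.260 ± 0.0321 to 0.371 ± 0.0662 (SD, n = 3 each). Each of these 4 ratios gave an exact two-sided permutation p of 0.1 over the libraries, the smallest that 3 against 3 allows, and an adjusted p of 0.225 over the 9 ratios, so none passed. Kdr relative to Cdh5 measured 0.811, 0.713 and 0.581 in WT and 0.635, 0.535 and 0.571 in TRa_mKO and overlapped (exact permutation p = 0.2). Its log2 difference was -0.26, against -0.25 for Flt1, so these 2 ratios are not shown to differ. Pecam1, Tek, Eng and Emcn overlapped as well, with exact permutation p of 0.6 to 1.0 and log2 differences between -0.17 and 0.03. Flt1, Kdr, Tie1, Nos3 and Vegfb kept the sign of the difference with Pecam1 or the summed other endothelial members as the denominator and when any library was left out.

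**Figure D4:**
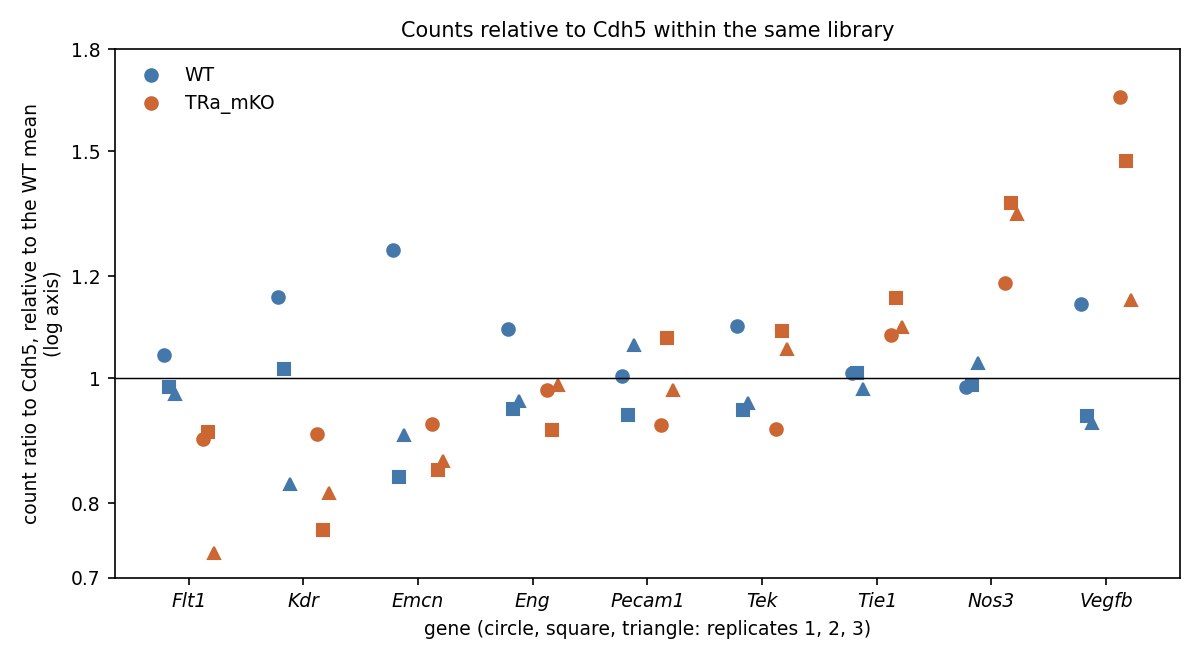
Counts of each gene per Cdh5 count in the same library, divided by the WT mean (log axis), with WT in blue and TRa_mKO in orange. Flt1 is lower in all TRa_mKO libraries, Tie1, Nos3 and Vegfb are higher in all of them, and the other genes overlap.

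Other genes of VEGF signalling were read from a list of 7 ligands and co-receptors, of which 1 fell and 0 rose in edgeR (median log2 fold change -0.23). Counts in this and every later list stand against 1.65% of all genes called lower and 2.52% called higher. Over all genes, the groups were apart and lower for 10.1%, and apart and higher for 13.2%. The gene that fell was Flt4, the VEGF receptor of lymphatic and some capillary endothelium, which stood at 17.9, 17.1 and 14.6 CPM in the WT libraries, against 10.3, 10.0 and 11.8 CPM in those of TRa_mKO. All TRa_mKO libraries were below all WT libraries (log2 fold change -0.62, SE 0.12, edgeR adjusted p = 0.0221), and the call ended without WT replicate 1 or 2 or TRa_mKO replicate 1 or 2 (0.0507 to 0.0999) and without the haemoglobin-rich libraries (0.0849). Vegfa, the ligand that muscle fibres secrete, had 483 CPM in WT and 481 CPM in TRa_mKO, with a log2 fold change of -0.01 (95% confidence interval -0.37 to 0.35, adjusted p = 0.988). Vegfd, a ligand of Flt4, had 2.92 ± 0.587 CPM in WT and 5.03 ± 0.528 CPM in TRa_mKO (SD, n = 3 each) with the groups apart, and its adjusted p in edgeR was 0.0645. Vegfc, the other Flt4 ligand, had a log2 fold change of -0.49 (adjusted p = 0.179, shared reads), and the VEGF co-receptor gene Nrp1 one of -0.31 (adjusted p = 0.252). Of 5 tested angiopoietin and TIE partner genes, edgeR called 0 in either direction, with 2 at an unadjusted p under 0.05. Angpt1, the activating ligand of Tek, had 13.0 ± 2.04 CPM in WT and 18.6 ± 2.25 CPM in TRa_mKO (SD, n = 3 each, log2 fold change 0.51, adjusted p = 0.0771). Ptprb, the endothelial phosphatase that restrains Tek, had a log2 fold change of -0.33 (adjusted p = 0.216), close to that of Cdh5, and Angptl1 one of 0.28 (adjusted p = 0.450).

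Endothelial genes outside the 10 were read next. Over 60 other genes of the pan-endothelial, capillary, arterial and venous lists, each counted once, 52 had a log2 fold change below 0 (86.7%), the groups were apart and lower for 13 (21.7%, against 10.1% of all genes) and apart and higher for 0, and the median was -0.21. Of these 60, 4 fell (6.67%, against 1.65% of all genes) and 0 rose in edgeR. Fli1, an ETS transcription factor that maintains endothelial identity, fell from 41.6 ± 2.64 to 27.8 ± 2.67 CPM (SD, n = 3, log2 fold change -0.58, SE 0.10, adjusted p = 0.0100). It held without any 1 library (adjusted p at most 0.0476) and not without the haemoglobin-rich pair (0.0564). Plvap, which forms the diaphragms of endothelial openings, stood at 29.9, 25.95 and 31.8 CPM in the WT libraries, against 14.9, 17.35 and 17.1 CPM in those of TRa_mKO. Rgcc, a regulator abundant in capillary endothelium, stood at 67.7, 70.0 and 83.6 CPM in the WT libraries, against 47.8, 41.0 and 45.7 CPM in those of TRa_mKO. Both were far apart between the groups, with log2 fold changes of -0.83 and -0.72 (SE 0.11 and 0.10, edgeR adjusted p = 0.00303 and 0.00495), and both passed under every alternative run. Alpl, an alkaline phosphatase of arterial endothelium, fell from 42.7 ± 8.17 to 28.3 ± 3.00 CPM (SD, n = 3, log2 fold change -0.59, adjusted p = 0.0439), and passed with 1 library left out only without WT replicate 2 (0.0557 to 0.170 otherwise), and not without the haemoglobin-rich pair (0.0640) or with limma-voom (0.0571).

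**Figure D5:**
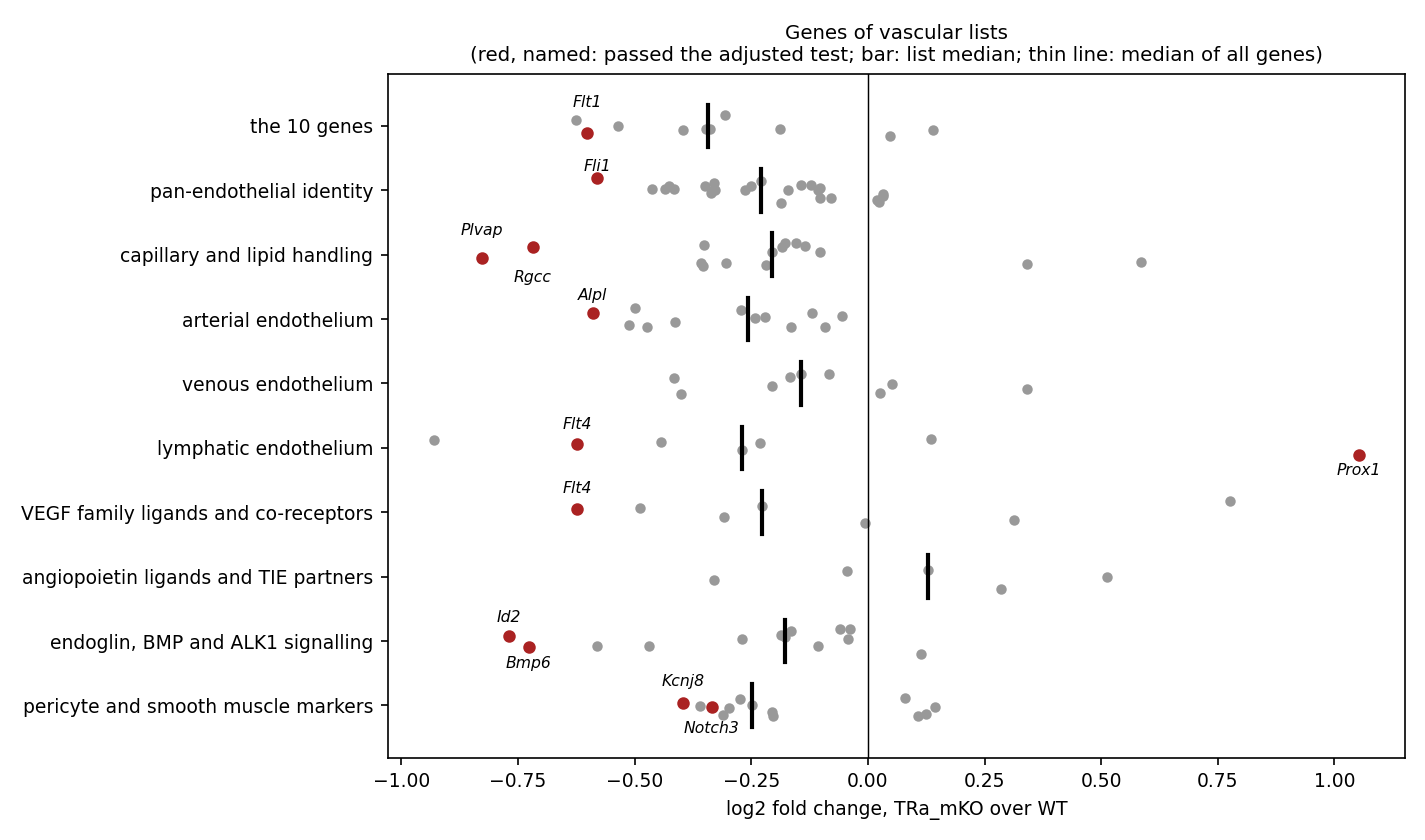
Log2 fold change (TRa_mKO over WT) of each tested gene of the 10 genes and 9 vascular lists, with 1 point per gene and the list median as a bar. Genes that passed the adjusted test are red and named, and most endothelial list medians lie between -0.27 and -0.14, while that of angiopoietin ligands is 0.13.

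Fold changes varied within the endothelial lists. Sox18 and Gata2, transcription factors of endothelium, had log2 fold changes of -0.42 and -0.43 with groups apart (edgeR adjusted p = 0.0521 and 0.0627). The tight junction gene Cldn5 had 26.1 CPM in WT and 26.7 CPM in TRa_mKO, a log2 fold change of 0.03 (95% confidence interval -0.25 to 0.31, adjusted p = 0.932), and Erg, a related ETS factor, one of -0.23 (-0.57 to 0.12, adjusted p = 0.486). Of 15 genes of capillary and lipid handling endothelium, 2 fell (Plvap and Rgcc) and 0 rose, with a median of -0.21. Fabp4 and Cd36, which move fatty acids through capillary cells and occur in other cells too, had log2 fold changes of -0.30 and -0.18 (adjusted p = 0.374 and 0.539), and Timp4 one of -0.35 (adjusted p = 0.127). Of the 15, 13 were below 0. Lpl and Aplnr went the other way, with log2 fold changes of 0.58 (95% confidence interval 0.10 to 1.07) and 0.34 (edgeR adjusted p = 0.188 and 0.452). Lpl was called higher by DESeq2 and in the fit without the haemoglobin-rich pair. Among 12 arterial genes, 12 were below 0, against 50% of all genes, and 1 fell, against 1.65% of all genes (median -0.26). Sema3g was at -0.47 (adjusted p = 0.0834) and the gap junction gene Gja5 at -0.51 (adjusted p = 0.171). Among 9 venous genes edgeR called 0 (median -0.14), with 2 at an unadjusted p under 0.05, and DESeq2 and limma-voom also called 0. The venous genes with the smallest p were Vwf, von Willebrand factor, at -0.40 (edgeR adjusted p = 0.152), Nr2f2 at -0.17 (0.277) and Icam1 at -0.42 (0.312). Of the 9, 6 were below 0, and Aplnr, Vcam1 and Lrg1 were above it (0.34, 0.05 and 0.03). The summed venous level overlapped, at 228 to 268 CPM in WT and 193 to 281 CPM in TRa_mKO.

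Of 7 lymphatic genes, 1 fell (Flt4) and 1 rose. The latter was Prox1, a transcription factor of lymphatic endothelium that is also expressed in slow muscle fibres and satellite cells, which stood at 6.21, 4.80 and 5.55 CPM in the WT libraries, against 12.2, 9.93 and 12.2 CPM in those of TRa_mKO (log2 fold change 1.05, SE 0.15, edgeR adjusted p = 0.00486). Of the other lymphatic genes, Mmrn1 had a log2 fold change of -0.93 (edgeR adjusted p = 0.230) and Lyve1 one of -0.44 (adjusted p = 0.456). Mmrn1 had 18 to 83 counts per library, and its groups overlapped. Ccl21a, Reln and Pdpn had log2 fold changes of -0.23, -0.27 and 0.13, and 5 of the 7 genes were below 0.

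Of 13 tested genes of endoglin, BMP and ALK1 signalling, 2 fell and 0 rose (median log2 fold change -0.18), against 1.65% of all genes lower and 2.52% higher. Bmp6, a BMP ligand made by endothelium and other cells, stood at 68.4, 50.1 and 46.5 CPM in the WT libraries, against 30.5, 33.7 and 35.4 CPM in those of TRa_mKO (log2 fold change -0.73, SE 0.14, edgeR adjusted p = 0.0219). Id2, a target of BMP signalling, stood at 9.73, 8.83 and 8.32 CPM in the WT libraries, against 6.15, 4.44 and 5.12 CPM in those of TRa_mKO (-0.77, SE 0.16, adjusted p = 0.0271). The groups were apart for both. Over the 13 genes they were apart and lower for 4 and apart and higher for 1, against 10.1% and 13.2% of all genes. The related target Id3 had a log2 fold change of -0.58 with groups apart (adjusted p = 0.125). The Bmp6 call ended without any 1 TRa_mKO library (0.0555 to 0.0862), and the Id2 call with every single library left out but TRa_mKO replicate 1 (0.0599 to 0.109) and without the haemoglobin-rich pair (0.180).

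Of 14 sprouting and Notch genes, edgeR called 0 (median -0.07), with 2 at an unadjusted p under 0.05 and 0 called by DESeq2 or limma-voom. Pdgfb, by which endothelium recruits pericytes, had a log2 fold change of -0.37 with groups apart (adjusted p = 0.0880), Jag1 one of -0.22 (0.274) and Apln one of 0.60 (0.280). In the nitric oxide list, 1 of 14 fell and 0 rose (median -0.17). The gene that fell was Nos1, the synthase of muscle fibres, which stood at 44.3, 41.7 and 44.0 CPM in the WT libraries, against 33.02, 25.5 and 19.0 CPM in those of TRa_mKO (log2 fold change -0.75, SE 0.17, adjusted p = 0.0481). Prkg1, a kinase downstream of nitric oxide, had a log2 fold change of 0.55 (adjusted p = 0.0747). The Nos1 call ended without any WT library or without TRa_mKO replicate 2 (0.0986 to 0.156), and without the haemoglobin-rich pair (0.0960).

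Angiogenic factors and regulators of muscle fibres counted 2 lower and 1 higher of 14. Fgfbp1, a secreted carrier of fibroblast growth factors, fell from 14.9 ± 1.88 to 2.15 ± 0.427 CPM (SD, n = 3, log2 fold change -2.80, SE 0.18, edgeR adjusted p = 6.54e-05). Egln3, an oxygen sensor that marks hypoxia-inducible factors for degradation, fell from 33.1 ± 4.34 to 10.3 ± 0.834 CPM (-1.68, SE 0.12, adjusted p = 0.000127). Angptl4, an inhibitor of lipoprotein lipase, rose from 2.90 ± 0.767 to 10.8 ± 5.16 CPM (1.90, SE 0.38, adjusted p = 0.0382), and its call ended without any WT library or without TRa_mKO replicate 2 (0.0722 to 0.129), and also with library size only, with no filter and with limma-voom (0.0531 to 0.0670).

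Of 13 genes of pericytes and smooth muscle, the mural cells that surround vessels, 2 fell and 0 rose (median log2 fold change -0.25), against 1.65% of all genes called lower, and the groups were apart and lower for 5, against 10.1% of all genes. The genes that fell were Notch3, a receptor of mural cells, from 54.9 ± 0.862 to 43.5 ± 1.90 CPM, and Kcnj8, a potassium channel of pericytes, from 67.5 ± 4.11 to 51.3 ± 4.96 CPM (SD, n = 3, edgeR adjusted p = 0.0399 and 0.0481). Of the 13, 9 were below 0, against 50% of all genes. Abcc9, Cspg4, Acta2 and Des were above 0, with log2 fold changes of 0.11, 0.08, 0.12 and 0.14. With 1 library left out, Notch3 passed without TRa_mKO replicate 1 and Kcnj8 without TRa_mKO replicate 3 (0.0736 to 0.168 otherwise), neither passed without the haemoglobin-rich pair, and Kcnj8 did not with limma-voom (0.0545). The summed level of the list, which holds the fibre gene Des, was 4196 to 4503 CPM in WT and 4303 to 4446 CPM in TRa_mKO. Fibre markers summed to 120823 to 156254 CPM in WT and 147144 to 167741 CPM in TRa_mKO, with 0 of 10 called in edgeR and 3 higher at an unadjusted p under 0.05. The groups were apart and higher for 4 of the 10, against 13.2% of all genes. DESeq2 called 3 of the 10 higher (Acta1, Mylpf and Ryr1), and edgeR with library size only called Ryr1 higher. The part of fibre RNA in the endothelial values was not tested. Under scaling by library size alone the median log2 fold change of the 10 genes was -0.39, and with the 10 most abundant genes left out it was -0.35.

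Outside the lists, the genes whose pattern over the 6 libraries lay nearest to the mean endothelial profile were Nxpe2, Srgn, Myl12b, Mcc, Cavin2 and Lgals3bp, in that order. They were drawn from 2425 genes that varied at least as much as that profile, and their root mean square differences from it were 0.0364 to 0.0629 on the log2 scale, where the profile itself had an SD of 0.273. Cavin2, a coat protein of caveolae, stood at 321, 282 and 247 CPM in the WT libraries, against 196, 191 and 267 CPM in those of TRa_mKO, so that TRa_mKO replicate 3 lay inside the WT range, as it did for Cdh5 and Eng.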

How the data were processed

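Polyadenylated RNA of gastrocnemius muscle from 6 mice (3 WT, 3 TRa_mKO) was sequenced on BGISEQ-500 from stranded libraries, per the labels' protocols. Named per the submitters' processing notes, with roles not stated, are Trimmomatic 0.39, featureCounts, MultiQC 1.12, FastQC 0.11.9 and 3 genome builds (GRCm39, mm10, GRCm38.p6); for the aligner, annotation and counting strand, the sources used here give no name. The authors deposited estimated counts per gene, without normalization; 9.65% to 10.0% of values per library were not whole, and values were rounded first. Genes with such values may share reads with other features and are marked as shared.

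Genes were kept by filterByExpr (minimum count 10), scaled by TMM and tested on genotype alone with the robust quasi-likelihood test of edgeR 4.0.16 in R 4.3.3, with Benjamini-Hochberg adjustment over 13118 genes; adjusted p under 0.05 counted as changed. Log2 fold changes are TRa_mKO over WT; CPM are TMM-scaled. The fit was first tested on simulated data, and the outcome is not reported here. Exon lengths were unions of exons over all transcripts of a gene in GENCODE M21, and motifs came from RefSeq promoters. Intervals are 95% confidence intervals. Whether libraries came from separate extractions is not stated, so p-values measure the spread between these libraries.

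Alternatives were DESeq2 size factors, library size only, other filters, DESeq2 1.42.0, limma-voom (limma 3.58.1), leaving out abundant genes, shared-read genes or libraries, and the replicate number as a block. The members, the 19 companion lists and the tests were chosen with earlier results of these data known. Named genes are the 10, Thra, every called gene of a list, up to 3 genes per list with the smallest p, and the 6 of nearest pattern. Genes outside this rule (Vegfa, Nrp1, Cldn5, Erg, Fabp4, Cd36, Lpl, Aplnr, Vcam1, Lrg1, Lyve1, Ccl21a, Reln, Pdpn, Id1, Smad6, Abcc9, Cspg4, Acta2, Des, Atg9b) were named after their values were seen. 1 gene that the rule names is not reported here.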

Additional observations from a re-analysis of the deposited data

How the results depend on the processing

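Of 159 alternative fits of the 10 genes, 151 kept both direction and side of the threshold. For genes not called with all libraries, this means that they stayed uncalled. Flt1, the called gene, kept its call in 13 of 16 alternatives. The number of the 10 that changed was 1 with all libraries, 2 (with Kdr) at an adjusted p under 0.1 and with DESeq2, 0 with the replicate block, 0 without the pair of haemoglobin-rich libraries, and 0 to 2 with 1 library left out. Over all genes the count was 547, against 934 at an adjusted p under 0.1, 357 with the replicate block, 267 without the haemoglobin-rich pair, and 209 to 595 with 1 library left out (361 and 310 when WT replicates 2 and 3 were dropped in turn, 209 when TRa_mKO replicate 2 was). The median log2 fold change of the 10 stayed between -0.49 and -0.23 in every fit. Nos3 changed sign without the haemoglobin-rich pair (-0.11) and without TRa_mKO replicate 3 (-0.13), and ranged from -0.13 to 0.19 with 1 library left out; fewer libraries enter these fits, and the cause was not tested. Libraries with the same replicate number did not deviate together (correlations of their deviations -0.18, 0.000321 and -0.00565 for numbers 1, 2 and 3). With 3 libraries per genotype, these values cannot exclude a pairing by number. With the number as a block the edgeR adjusted p of Flt1 was 0.0521 at a log2 fold change of -0.60. Flt4, Alpl, Bmp6, Angptl4, Kcnj8, Notch3 and Pax7 did not pass either (0.0534 to 0.116). With library size only, the median of all genes moved by -0.05. The ratio of Tie1 to Cdh5 (log2 difference 0.15) became 0.23 against the summed other endothelial members. With 3 libraries per genotype the intervals are wide, and genes that did not pass are not shown to be alike. Counts of called genes in the companion lists kept within 1.5 times their value in 232 of 304 fits. Lists with 0 called count as kept when they stayed at 0, and an exchange of 1 called gene for another is not seen. Among lists with a called gene, the nitric oxide list kept its count in 3 of 16 fits. The arterial and the pericyte list did so in 7 each, and the capillary list and that of angiogenic factors in all 16.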

Other observations

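Lists of other cell types in the same muscle gave these values. Of 7 satellite cell genes, 1 rose in edgeR, Pax7, the defining factor of muscle stem cells, from 6.84 ± 0.850 to 10.8 ± 0.360 CPM (SD, n = 3, log2 fold change 0.66, adjusted p = 0.0261); with 1 library left out it passed without WT replicate 2 and not otherwise (0.0527 to 0.0916), nor without the haemoglobin-rich pair (0.168). Calcr, a receptor of quiescent satellite cells, had a log2 fold change of 1.00 with groups apart (edgeR adjusted p = 0.0763), and Sdc4 one of 0.21 (0.304). Of 10 fibroblast genes edgeR called 0, with 1 at an unadjusted p under 0.05, and DESeq2 called 1, Col3a1, a collagen gene with a log2 fold change of 0.58 and groups apart (edgeR adjusted p = 0.112); Smoc2 and Dcn had 0.23 and -0.28. Of 10 tested leukocyte genes edgeR called 0, with 1 at an unadjusted p under 0.05 (Lyz2, -0.39, adjusted p = 0.252, shared reads); Adgre1 and C1qa had -0.18 and 0.15.

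All 7 Schwann cell genes were below 0 (median log2 fold change -0.78) and 0 passed, with Sox10, Ncmap and Prx at -0.60, -0.88 and -0.78. Their summed level was 1322, 323 and 1267 CPM in WT against 506, 594 and 690 CPM in TRa_mKO, so WT replicate 2 lay below all TRa_mKO libraries, and without it 6 of the 7 were called lower. This order is not that of the endothelial genes, where WT replicate 2 was the middle WT library. Of 5 tested adipocyte genes and 6 haemoglobin and red cell genes edgeR called 0 each, with 0 at an unadjusted p under 0.05 in both; Cidec, Retn and Plin1 had log2 fold changes of -0.53, -0.58 and 0.14, and Slc4a1, Hbb-bt and Alas2 of 1.24, 0.36 and 0.27, the last pair with shared reads. Among fibre genes, Ryr1, Acta1 and Mylpf had 0.48, 0.46 and 0.44 (Mylpf with shared reads) with groups apart (edgeR adjusted p = 0.0570, 0.138 and 0.202).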
